A study of Drosophila melanogaster with 12 samples.

Results

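Clustered autosomal Phaser sites without Saft are places on the large autosomal arms where binding of Phaser was called at summits lying within 1000 bp of each other and where Saft was not called. They were taken from the peak list of Phaser replicate 1 by a rule that uses peak positions alone. A peak had to lie on 2L, 2R, 3L or 3R, overlap a peak of Phaser replicate 2 by 1 bp or more and overlap none of the 4 Saft lists. Its summit, the position of highest signal within the peak, had to lie within 1000 bp of the summit of another replicate 1 peak that was also found in replicate 2. The rule found 336 sites among the 5299 peaks of Phaser replicate 1 and the 14668 peaks of all 6 lists.

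The proteins Phaser, encoded by CG7372, and Saft, encoded by CG11247, are transcription factors in the labels' terms, and both were mapped by anti-FLAG ChIP-seq in Drosophila melanogaster S2 cells, a line derived from embryos. Phaser was mapped in clone 8D (OsTir1, Phaser_FLAG-AID) and Saft in clones 9C and 4H (OsTir1, Saft_FLAG-AID), with 2 replicates of each clone. In every clone the endogenous gene carried, on all its copies, a FLAG tag fused to an auxin-inducible degron, and every clone also expressed OsTir1, the plant protein that directs degron-tagged proteins to destruction when auxin is given. Cells were left undepleted, so the tagged protein was present. All Phaser values come from 1 clone, and peaks of untagged cells were not analysed here. Chromatin was fixed in 1% formaldehyde for 10 min and sheared to 200 to 1000 bp, so fragments can be as long as the distance that defines a cluster. The 6 input libraries have no list of their own here.

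A transcription factor binds short DNA sequence motifs, and several binding sites for one factor often lie close together in the regulatory DNA of Drosophila, where they are known as homotypic clusters. Silencers, the subject named in the series title, are regulatory DNA that lowers transcription through the repressors that bind it. In a ChIP-seq peak list, neighbouring sites show as separate peaks only where the signal dips between them. Sites are named by their dm3 coordinates, because no gene annotation or genome sequence of that build was used here. For the same reason no sequence is printed.

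The first step of the rule kept 3259 of 4635 autosomal replicate 1 peaks (70.3%), those that overlapped replicate 2. Of these, 3051 (93.6%) overlapped no Saft peak. A neighbouring summit within 1000 bp was present at 356 of the 3259 (10.9%). Removing the 20 of these that touched Saft gave the 336 clustered sites, and 2715 isolated sites met every condition but the neighbour. These counts are set by the rule and were not tested. Before the step of reproduction, 957 autosomal replicate 1 peaks lay within 1000 bp of another, and 601 of them (62.8%) were found in replicate 2, against 2658 of the 3678 peaks that lay farther apart (72.3%).

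The sites came mostly in pairs. The 336 sites belonged to 173 clusters, of which 167 held 2 peaks and 6 held 3. The clusters spanned a median of 1257 bp from the first to the last base of their peaks, and neighbouring clusters lay a median of 272 kb apart along an arm. In 157 clusters no peak touched Saft. The other 16 clusters each held 1 further Phaser peak that overlapped Saft. For 15 sites, in clusters of 2 peaks, such a peak was the only partner. In the cluster of 3 at chr3L:4563115-4565026 it was the middle peak and the only partner of both other sites, whose summits lay 1515 bp apart. The 336 peaks together covered 185 kb.

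Nearest summits lay 129 to 997 bp apart, with a median of 685 bp and quartiles of 538 and 852 bp. Few called summits lay very close: 65 sites had their neighbour within 500 bp and 271 between 500 and 1000 bp. Sites that merge into 1 peak are not counted apart, and the narrowest clustered peak was 151 bp wide. Of 279 neighbouring pairs called in replicate 2, 136 had the same strongest replicate 1 peak. The lists therefore cannot give the number of very close sites. Past 1000 bp the counts of sites without Saft were 436 between 1000 and 2000 bp, 289 between 2000 and 3000 bp and 205 between 3000 and 4000 bp. The bases between neighbouring peaks numbered 155 at the median and 37 at the least.

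**Figure D1:**
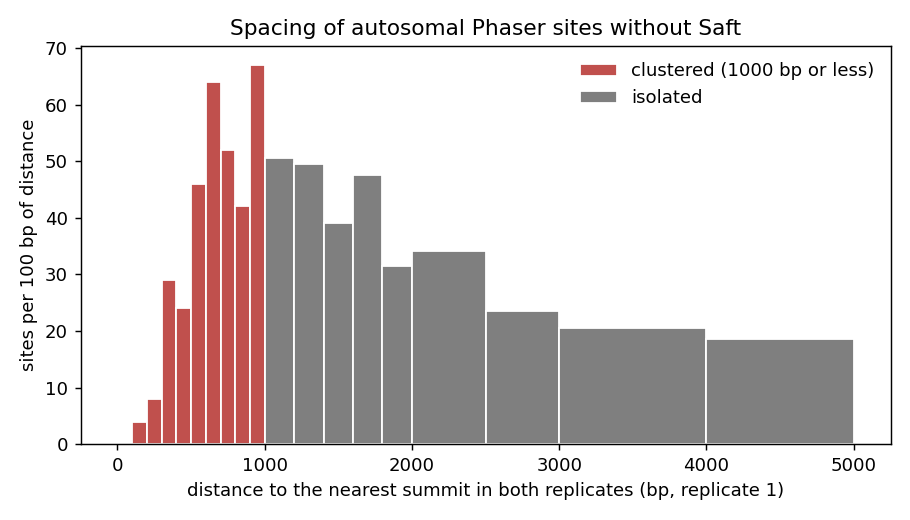
Number of autosomal Phaser sites without Saft, per 100 bp of distance, against the distance in bp to the nearest summit found in both replicates; red bars are the clustered sites and grey bars the isolated ones. Bars past 1000 bp are wider and scaled to 100 bp, and the highest bar, 67 sites at 900 to 1000 bp, lies next to the limit.

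Distances came close to the limit of 1000 bp on both sides. There were 42 sites at 800 to 900 bp, 67 at 900 to 1000 bp and 101 in the wider range of 1000 to 1200 bp. The 5 distances just inside the limit ran from 985 to 997 bp and the 5 just outside from 1001 to 1003 bp. Just inside lay the pair at chr2L:10809216-10810010 and chr2L:10810531-10810716, whose summits were 997 bp apart. Its left peak had fold enrichments of 9.45 in replicate 1 and 9.25 in replicate 2, and its right peak 3.37 and 3.39. Just outside lay chr3R:1319308-1320000 and chr3R:1320168-1320845, with summits 1003 bp apart in replicate 1 and 990 bp apart in replicate 2. Their fold enrichments in replicates 1 and 2 were 7.99 and 5.999 at the left and 7.99 and 5.76 at the right. Fold enrichment here is the authors' ratio of ChIP pileup to background at the summit.

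As a group, clustered sites had lower enrichment than isolated ones in replicate 1 and lay closer to them in replicate 2. The median fold was 4.77 in replicate 1 and 4.16 in replicate 2 at clustered sites, against 5.63 and 4.45 at isolated sites. At 56 clustered sites (16.7%), against 0.147% of isolated sites, the replicate 2 value was that of a peak also used for another site. A weak site beside a strong one can thus carry the strong peak's value in replicate 2, as at chr3L:968103-968365, with 2.16 and 8.37. The ranges overlapped widely, from 1.93 to 15.5 at clustered and from 1.87 to 16.5 at isolated sites in replicate 1. Peak widths were alike, with replicate 1 medians of 466.5 bp at clustered and 487 bp at isolated sites. Both replicates entered the rule through their peak calls, so these are descriptions without a test.

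Weak sites were more frequent among the clustered ones. When the 3259 autosomal sites in both replicates were divided into 4 near-equal classes by the peak caller's −log10 q in replicate 1, the weakest class (−log10 q up to 8.07, 25.1% of all) held 128 of the 336 clustered sites (38.1%). It held 22.1% of the isolated sites. The strongest class (−log10 q of 24.6 or more, 25% of all) held 72 clustered sites (21.4%), against 26.4% of isolated sites. Clustered sites were thus found at every strength, with 62 and 74 of them in the classes between.

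The strongest clustered sites stood among the strong peaks of the whole list. By the mean rank of −log10 q over both replicates the first was chr3L:9326430-9327574, with fold enrichments of 13.1 and 13.6 (mean 13.3 ± 0.336, SD, n = 2) and ranks of 39 and 9 in the 2 lists. It was followed by chr3L:2683723-2684931, with 15.5 and 13.6 (14.6 ± 1.36, SD, n = 2), the highest fold of any clustered site in either replicate, and by chr3L:4909922-4910872, with 14.6 and 12.9 (13.8 ± 1.202, SD, n = 2). These 3 sites are all on 3L, and both replicates placed them among their first 40 peaks.

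The next of the 10 strongest were spread over all 4 arms. On 3R they were chr3R:9401276-9402009, with 11.3 and 12.6, chr3R:3340768-3341848, with 11.2 and 9.46, and chr3R:11544719-11545583, with 12.04 and 10.9. On 3L they were chr3L:2647164-2648821, with 10.7 and 11.2, and chr3L:10597256-10598384, with 13.2 and 10.4. The last were chr2L:13041159-13042322, with 9.80 and 8.69, and chr2R:12192016-12193202, with 14.3 and 11.5. Over these 10 sites the peaks were 734 to 1658 bp wide, so each was wider than the median clustered site. Their nearest partners lay 539 to 966 bp away, and 5 of the 10 were on 3L.

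Neighbouring sites were unequal in strength. Among the 162 pairs of adjacent clustered sites, the stronger had a median fold of 6.92 and the weaker 3.56 in replicate 1. The ratio of the stronger to the weaker had a median of 1.77 and quartiles of 1.30 and 2.40. It was 2 or more in 65 pairs (40.1%), where 22.6% of neighbouring sites more than 1000 bp apart reached that ratio. Over the 134 pairs whose sites had different strongest peaks in replicate 2, 46 (34.3%) had a ratio of 2 or more there, against 19.8% of the farther neighbours.

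In replicate 1 the closer the neighbours, the lower was the weaker site, while the stronger site differed little. At summit distances up to 500, 500 to 1000, 1000 to 2000, 2000 to 5000, 5000 to 10000 and 10000 to 50000 bp, the weaker site had median folds of 2.89, 3.60, 4.29, 4.42, 4.48 and 4.49 in replicate 1. The stronger site had 6.80, 6.97, 7.08, 7.10, 7.10 and 7.13. In replicate 2, over pairs with different peaks there, the weaker site had 3.17, 3.13, 3.49, 3.66, 3.57 and 3.59, a narrower range in which the smallest distance was not the lowest. The stronger site had 5.01, 5.42, 5.94, 5.68, 5.60 and 5.60 in replicate 2. Across pairs, log2 fold of the left and right site had a Pearson correlation of −0.35 (162 clustered pairs), −0.15 at 1000 to 2000 bp (240 pairs) and −0.04 at 2000 to 5000 bp (437 pairs). The replicate 1 values keep pairs that share their strongest replicate 2 peak, so the 2 replicates are not read over the same pairs. Such pairs were 16 of 33 up to 500 bp and 12 of 129 at 500 to 1000 bp. They were 2 of 240 at 1000 to 2000 bp and 0 of 437 at 2000 to 5000 bp. A weak site can meet the rule through its stronger neighbour's replicate 2 peak, so the rule may set the replicate 1 trend in part. Both sites of a pair come from 1 library, and these are descriptions.

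**Figure D2:**
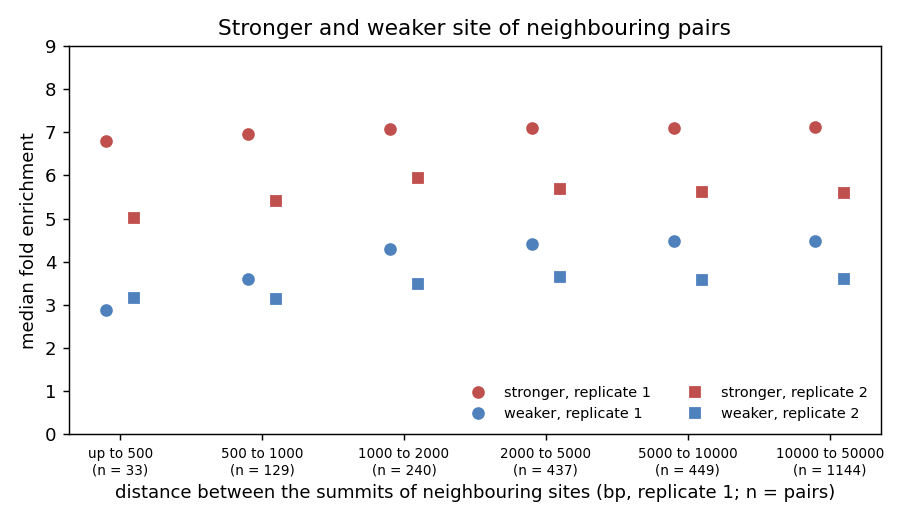
Median fold enrichment of the stronger (red) and weaker (blue) site of neighbouring Phaser sites without Saft, by the distance between summits in bp; circles are replicate 1 and squares replicate 2, for which pairs that share their strongest replicate 2 peak are left out. The n under each distance counts the replicate 1 pairs. In replicate 1 the weaker site runs from 2.89 in the closest pairs to 4.49 in the farthest, while the stronger stays between 6.80 and 7.13.

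Few pairs joined 2 strong sites. Both sites lay above the median −log10 q of 14.0 in 18 of the 162 pairs (11.1%), against 25.9% of neighbouring sites more than 1000 bp apart. One site above and one at or below it was the usual case, in 103 pairs (63.6%), against 51.7% of the farther neighbours. The weaker site was among the weakest 25.1% of all sites in 116 pairs (71.6%), against 41.2%. Where weak peaks stand beside strong ones, a shoulder of the strong signal and a site of its own cannot be told apart in a peak list.

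The 5 most unequal pairs included 4 of the 10 strongest sites. At chr3L:2683250-2683441 and chr3L:2683723-2684931, 966 bp apart, the left site had folds of 3.11 and 2.97 and the right site 15.5 and 13.6. At chr3L:10597256-10598384 and chr3L:10598543-10598756, 882 bp apart, the left site had 13.2 and 10.4 and the right site 3.08 and 2.51. At chr3R:9400689-9400998 and chr3R:9401276-9402009, 892 bp apart, the left site had 2.66 and 3.05 and the right site 11.3 and 12.6. In each of these 3 pairs the order was the same in both replicates and the values of the strong and weak site did not overlap.

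In the other 2 of the 5 most unequal pairs both sites had the same strongest peak in replicate 2. They were chr3L:967438-968057 with chr3L:968103-968365, at 10.2 and 2.16 in replicate 1, and chr3L:4909633-4909822 with chr3L:4909922-4910872, at 3.44 and 14.6. That replicate 2 peak had a fold of 8.37 at the first and 12.9 at the second. In these pairs the weak partner thus has no value of its own in replicate 2.

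The most equal pair was chr2L:1533511-1534056 and chr2L:1534437-1534940, with 5.95 and 6.01 in replicate 1, but the values were 4.22 and 5.99 in replicate 2. At chr3L:9513474-9513762 and chr3L:9514207-9514499 they were 4.83 and 4.77 in replicate 1, and 4.85 and 3.44 in replicate 2. At chr3L:2621728-2622082 and chr3L:2622280-2622601 they were 4.72 and 4.59, and 3.87 and 3.86, so that this pair was equal in both replicates. The remaining pairs were chr3R:14140096-14140722 with chr3R:14140892-14141293, at 4.77 and 4.69 in replicate 1 and 3.07 and 3.58 in replicate 2, and chr2L:19981406-19981839 with chr2L:19982255-19982486, at 3.01 and 3.13 in replicate 1 and 2.81 and 2.36 in replicate 2. The order within both of these pairs turned between the replicates.

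Which site of a pair was the stronger was mostly the same in both replicates. Of the 134 pairs with different replicate 2 peaks, 117 (87.3%, 95% Wilson interval 80.6 to 91.9) had the same stronger site, where 78.5% of neighbouring sites more than 1000 bp apart did. The share was 36 of 51 for pairs with a ratio under 1.5 in replicate 1, 35 of 35 for ratios of 1.5 to 2 and 46 of 48 for ratios of 2 or more. A ratio of 2 or more was met in 40.1% of the 162 pairs and 22.6% of the farther neighbours. The farther neighbours were not divided by ratio, so the 87.3% and 78.5% do not compare pairs of like ratio. The log2 ratio of left to right fold had a Pearson correlation of 0.89 between replicates across these 134 pairs, and the 2 values of a pair differed by 0.33 on average. By recovered ChIP reads, the share with the same order was 96.2% of 132 pairs. The left site was the stronger in 76 of 162 pairs (46.9%, 39.4 to 54.6), so neither side was favoured beyond counting error.

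**Figure D3:**
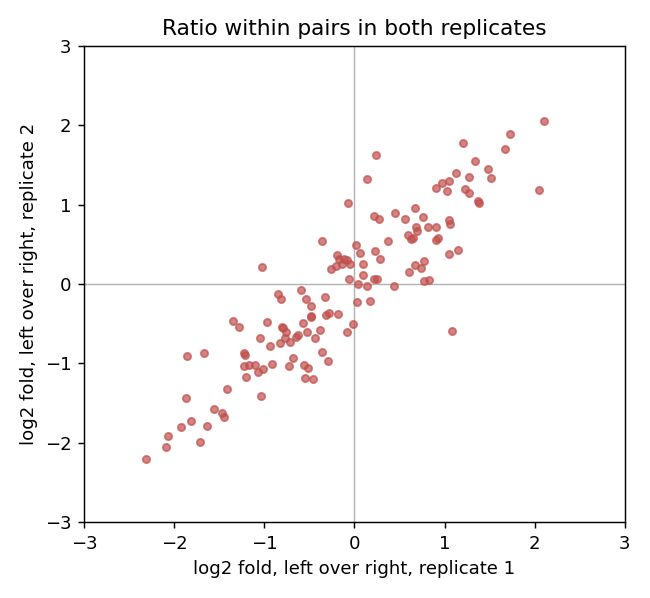
Log2 ratio of the left to the right fold enrichment in replicate 1 (horizontal) and replicate 2 (vertical) for the 134 pairs of neighbouring clustered sites with different strongest peaks in replicate 2; 1 point is 1 pair. Of these, 117 points lie in the quadrants where both replicates have the same stronger site, and those outside are mostly near 0 on the horizontal axis.

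The number of ChIP reads at each summit was worked back from the deposited ratio and p, which puts the sites on a scale of counts. Clustered sites held a median of 108.5 reads in replicate 1 and 101 in replicate 2, against 124 and 106 at isolated sites. Sites that share a replicate 2 peak each carry the reads of that peak in replicate 2. Within pairs the site with more reads had a median of 150.5 and the one with fewer 79.5 in replicate 1 (160 pairs in which both were recovered). The highest clustered summits held 278 and 279 reads, and both Phaser lists end at 283. The recovered background is on the scale of the pileup, where 1 read counts for 0.289 in replicate 1 and 0.325 in replicate 2. It cannot be set directly against the reads. It was similar in both sets, with medians of 5.51 and 6.35 at clustered and 5.25 and 6.87 at isolated sites in replicates 1 and 2.

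Spacing was kept between replicates where both peaks were resolved. Summit distances of the 134 pairs had a median of 734.5 bp in replicate 1 and 754 bp in replicate 2, and 127 of the pairs (94.8%, 89.6 to 97.4) were within 1000 bp in replicate 2 as well. The 2 distances of a pair differed by a median of 38.5 bp and by at most 100 bp in 115 pairs (85.8%). The Pearson correlation of the distances was 0.89. Replicate 2 entered the rule through overlap and not through summit distance, but the rule asks for a replicate 2 peak over each partner, which sets these distances in part.

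**Figure D4:**
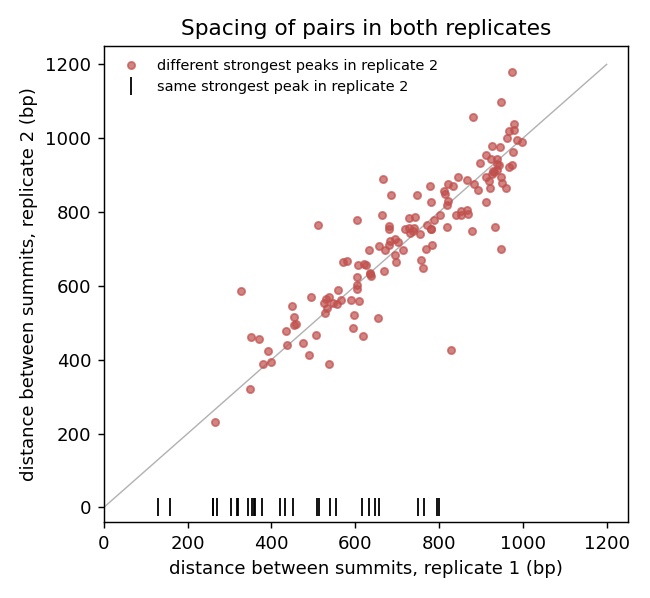
Distance between the summits of neighbouring clustered sites in bp, in replicate 1 (horizontal) and replicate 2 (vertical); red points are the 134 pairs with different strongest replicate 2 peaks, the line marks equal distances, and black ticks at 0 are the 28 pairs that share their strongest one. The red points follow the line, and the ticks lie between 129 and 799 bp.

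In the other 28 pairs (17.3%) both sites had the same strongest replicate 2 peak, against 0.074% of neighbouring sites more than 1000 bp apart. These pairs were close, with a median summit distance of 426.5 bp, and their peaks were separated by a median gap of 65.5 bp, against 182.5 bp in the other 134 pairs. With a gap of up to 100 bp, 22 of 63 pairs shared it, and with a wider gap 6 of 99 did. In 4 of the 28 pairs a weaker replicate 2 peak also overlapped a site. The summit of the shared peak lay nearer the stronger replicate 1 summit in 25 of the 28 pairs (89.3%, 72.8 to 96.3). The closest pair of all, chr2L:18469524-18469732 and chr2L:18469777-18470029 with summits 129 bp apart, was of this kind, with folds of 3.54 and 2.01 in replicate 1 and a single peak of 2.92 in replicate 2. Of the 5 closest pairs, chr2L:13309898-13310075 and chr2L:13310145-13310463 alone had different replicate 2 peaks, with folds of 2.16 and 5.49 in replicate 1 and 2.72 and 3.76 in replicate 2.

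Counted by site, 280 of the 336 clustered sites (83.3%, 79.0 to 86.9) had a replicate 2 summit that lay within 1000 bp of another replicate 2 summit, against 170 of the 2715 isolated sites (6.26%) and 14.6% of all autosomal sites in both replicates. The rule asks for a replicate 2 peak over a clustered site and over its partner, and isolated sites lack such a partner, so this contrast is largely set by the selection and is a description. The strongest overlapping replicate 2 peak was also that of another site at 56 clustered sites (16.7%), where 1.9% of all sites shared theirs. Summits of the 2 replicates lay a median of 21 bp apart at clustered and 16 bp at isolated sites. They were more than 150 bp apart at 37 clustered sites (11.01%), against 1.22% of isolated sites, where 2.61% of all sites were. The summit of a shared replicate 2 peak counts for both of its sites, so this contrast is set in part by the sharing.

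The number of clustered sites depended on which replicate the rule was read from. Read from replicate 2, it gave 548 clustered sites of 3178 without Saft (17.2%), in 267 clusters, of which 28 held 3 peaks and 3 held 4. Of the 548, 292 (53.3%) overlapped one of the 336, and 278 of the 336 (82.7%) overlapped one of the 548. Of the 279 neighbouring pairs of replicate 2, 136 (48.7%) had the same strongest replicate 1 peak. Those 128 replicate 1 peaks had a median width of 964 bp, against 480 bp for all autosomal sites in both replicates, and 111 of them counted as isolated in replicate 1. An isolated site is therefore 1 peak in replicate 1 and can hold several in replicate 2. Without the step of overlap, replicate 1 alone gave 895 clustered sites and replicate 2 alone 625.

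The clusters of 3 peaks were spread over the 4 arms. The widest lay at chr2L:8333000-8335329, where folds from left to right were 2.69, 4.44 and 8.71 in replicate 1 and 2.13, 4.35 and 6.05 in replicate 2, with summits 743 and 939 bp apart. At chr3R:10373137-10375180 they were 7.02, 3.70 and 4.22 in replicate 1 and 6.25, 4.19 and 3.25 in replicate 2. At chr3R:26835040-26836902 they were 5.64, 3.32 and 5.96 in replicate 1 and 5.35, 2.99 and 3.25 in replicate 2. The site at the left was thus the weakest of the first cluster and the strongest of the second in both replicates.

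On 3L the cluster at chr3L:19937581-19939619 had folds of 7.07, 3.40 and 4.43 in replicate 1 and 4.29, 2.53 and 3.76 in replicate 2, with the middle site the weakest in both. At chr2R:14435517-14436658, the most compact of the 6, the left site had 6.43 and 8.50, and the other 2 sites, at 2.54 and 2.88 in replicate 1, lay under a single replicate 2 peak of 2.90. The last, chr3L:4563115-4565026, held 2 clustered sites and 1 Phaser peak that overlapped Saft, with folds of 2.86, 3.11 and 5.45 in replicate 1 and 2.26, 2.76 and 4.85 in replicate 2. The middle peak of this cluster was the one that overlapped Saft. In replicate 1, 2 of the 3 peaks were close in fold in this cluster, in that on 2R and in both on 3R.

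Among pairs, the highest summed enrichment was at chr3R:8683922-8685160, where the left site had folds of 7.16 and 3.82 and the right site 11.8 and 6.35 in replicates 1 and 2. It was followed by chr3L:2683250-2684931, described above. At chr2L:15910864-15912979 the left site had 9.98 and 7.62 and the right site 8.29 and 4.32, so that both sites were strong in replicate 1. At chr2R:12191358-12193202 the left site had 3.91 and 4.27 and the right site 14.3 and 11.5. In all 4 pairs the stronger site was the same in both replicates.

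Clustered sites were most frequent on 3L. The arm held 115 of the 336 (34.2%, 29.4 to 39.5), against 22.7% of isolated sites (21.1 to 24.3) and 24.4% of all autosomal sites in both replicates. As a share of the sites without Saft on each arm, clustered sites made up 15.8% on 3L (13.3 to 18.6), 10.9% on 2L, 9.49% on 2R and 8.73% on 3R. Read from replicate 2, the shares were 20.6% on 3L, 18.0% on 2L, 15.0% on 2R and 15.8% on 3R, with 3L again the highest but by less. Nearest-site distances over all sites without Saft were alike, with medians of 5.25 kb on 3L and 5.32 to 6.17 kb on the other arms. Median folds of clustered sites were also alike over the arms, from 4.71 to 4.95 in replicate 1 and from 4.06 to 4.27 in replicate 2. Intervals count regions as independent, and no test between arms was made.

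**Figure D5:**
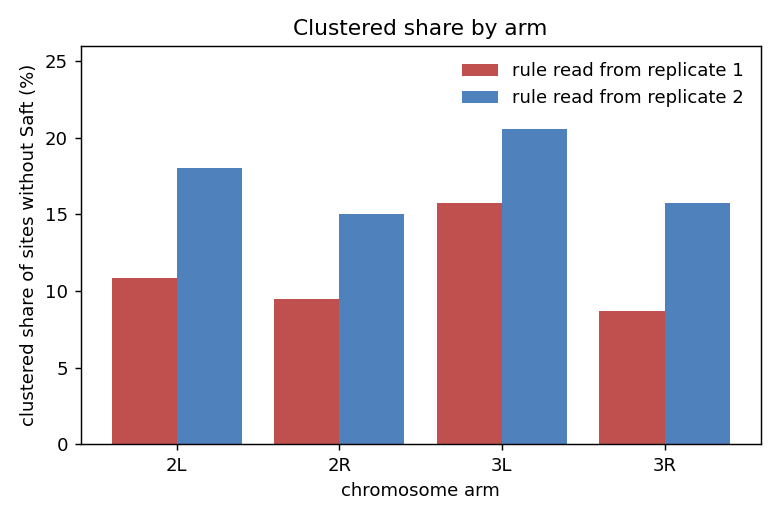
Clustered sites as a percentage of the autosomal Phaser sites without Saft on each arm, with the rule read from replicate 1 (red) and from replicate 2 (blue); there are no error bars. The 3L bars are the highest for both readings, at 15.8% and 20.6%.

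Along the arms, 67 of the 93 windows of 1 Mb that held a Phaser site without Saft held a clustered one. The most were in chr3L:2000001-3000000, with 14 clustered sites among 58 (24.1%), including the pair of highest fold and the pair equal in both replicates. Another Phaser site beyond the cluster lay within 5000 bp of 168 of the 336 clustered sites (50%), and an isolated site had another within that distance in 41.1% of cases. The median distance to the next site outside the cluster was 4999.5 bp, against 6727 bp from an isolated site to its nearest neighbour. Peaks seen in replicate 1 alone were not more frequent around clusters: 26 clustered sites (7.74%) had one within 1000 bp, against 8.58% of isolated sites and 8.49% of all sites without Saft.

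Saft was absent from the clustered sites by the rule, and it was near them mainly where a partner touched it. The nearest Saft peak lay a median of 33068.5 bp away, against 32541 bp for isolated sites, and at 70 sites (20.8%) it lay within 10000 bp, against 19.6%. Within 1000 bp a Saft peak lay beside 21 clustered sites (6.25%, 4.12 to 9.37), where 2.1% of all sites without Saft had one and 1.58% of the isolated ones did. Of the 21, 17 had a partner that itself overlapped Saft. In the 157 clusters without such a partner, 4 of 319 sites had a Saft peak within 1000 bp. Isolated sites have no partner by the rule, so the contrast with them is largely set by the selection.

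Close spacing was found in the lists of both factors, and the test over 6 libraries cannot decide whether they differ. The share of autosomal peaks with another summit of the same list within 1000 bp was 20.6% and 18.6% in the Phaser replicates, against 16.6% and 19.8% for clone 9C of Saft and 13.96% and 22.9% for its clone 4H. Means were 19.6% ± 1.43 for Phaser and 18.3% ± 3.87 for Saft (SD, n = 2 and 4), a difference of 1.33 percentage points (exact permutation test over libraries, two-sided, p = 0.733). The lists were of unequal length, with 4635 and 3501 autosomal peaks for Phaser and 1046 to 1336 for Saft. Libraries of the same clone were counted as independent, and factor cannot be separated from clone. The smallest p that the 15 assignments allow is 0.0667, above the threshold of 0.05, so the test could not have passed it. A p above the threshold does not show that the factors are alike. The difference turned to −0.117 points without Saft 4H replicate 1 and to −1.2 points among the 500 strongest peaks of each list, where 0.8% and 0% of Phaser peaks and 0.8% to 2% of Saft peaks had such a neighbour.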

How the data were processed

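Each of the 6 ChIP libraries has its own peak list (narrowPeak), so replicates were not pooled. Per the submitters' processing notes, the build was dm3 and the tools included MACS2 2.1.2.1, Bowtie 1.2.2 and Trim Galore 0.6.2, without order or settings. Fold enrichment, as deposited, is the ratio of pileup to background. For −log10 p and −log10 q the deposited summit values were used, with a lowest −log10 q of 1.30 to 1.44 in each list. The deposited score was not used. Read depth is unknown, so lists are described by their lengths, 5299 and 3988 peaks for Phaser and 1212 to 1515 for Saft.

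A site's replicate 2 value is that of the overlapping peak with the highest −log10 q. ChIP reads were recovered by solving the Poisson p and the fold for pileup and background. The fold was taken as the ratio of pileup to background, each raised by 1. Within 0.03 reads 100% of the peaks of both Phaser lists came out whole (7.61% and 8.43% with a wrong factor), and 13 and 7 peaks with more than 1 solution were left out. On data made for a check of the code, the rule returned all 1007 planted sites and the recovery 585 of 585 peaks. This check covers the code alone and not the deposited lists.

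The members, sets and tests were chosen with earlier results of these data known. Wilson intervals (95%) treat regions as independent and hold counting error alone. The test over libraries was an exact permutation test. Named regions were, by rule, the 10 clusters with the most peaks and the largest on each arm, the 10 best mean ranks of −log10 q, the 5 closest, most unequal and most equal pairs, and the 5 distances on either side of the limit. The gene table at hand is of another build and was not joined. Replicate numbers are shared between clones. Replicate 1 deviated from its clone's mean share by 1.01 points in Phaser, −1.58 in Saft 9C and −4.47 in Saft 4H. Whether a number marks a shared batch was not tested, and the main test did not pair by it. Python 3.11.15 was used with numpy 2.4.6, pandas 2.3.3, scipy 1.17.1 and matplotlib 3.10.9.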

Additional observations from a re-analysis of the deposited data

Results flagged for a closer look

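The X chromosome lies outside the arms described above, and 31 of its 417 Phaser sites without Saft (7.43%) met the same conditions, against 11.01% on the autosomes. They are listed because that number is above 3, the limit set for listing. The rule leaves out the X by its choice of arms, so passing this limit tests nothing, and no control list was used. Their median fold was 4.84 in replicate 1 and 4.01 in replicate 2, and 29 of the 31 had a clustered summit in replicate 2. Chromosome 4 and the heterochromatic scaffolds held 0 such sites.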

How the results depend on the processing

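The number of clustered sites, 336, followed the definition: it was 65 at a summit distance of 500 bp, 772 at 2000 bp, 33 among peaks with −log10 q of 10 or more, 212 with a reciprocal overlap of 50% and 548 with the replicates swapped. Leaving out 1 replicate gave 336 to 895. The highest value was that without Phaser replicate 2, and without Phaser replicate 1 it was 625, a setting chosen after seeing the data; the 4 Saft lists moved it to 340 at most. The share of sites also clustered in replicate 2 was 41.5%, 94.4%, 87.9% and 95.3% in the first 4 of these settings. The share of pairs with the same stronger site was 92.5% by −log10 q and 96.2% by recovered reads, and lay between 83.3% and 91.2% in its other alternatives. The Phaser minus Saft difference of 1.33 points turned to −1.2 among the 500 strongest peaks (exact permutation p = 0.2), and ranged from −0.117 to 2.86 with 1 replicate left out. With a replicate block its exact p was 0.778. No setting brought that p under 0.05, which the 15 assignments do not allow. The cause of these shifts was not tested. Clusters with no Saft peak, also chosen after seeing the data, gave 319 sites and like shares. Unknown depth limits all comparisons of list length.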
